A study of Homo sapiens with 12 samples.

Results

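CDKN2A, CDKN2B, MTAP, DMRTA1 and STK11 are genes that A549, an established human lung adenocarcinoma line, is known for having lost. The first 3 lie in a homozygous deletion at 9p21 on the short arm of chromosome 9, DMRTA1 is the next protein-coding gene along and is listed with that deletion, and STK11 on chromosome 19 carries a truncating mutation. The genes were taken by name, 5 of the 57756 rows in the deposited table, and each had 1 row carrying its symbol. All of them held counts in all 12 libraries, from 27 counts for the lowest CDKN2A library to 174 for the highest MTAP library. These values go against the description of the 9p21 genes as deleted, so they are called here the 9p21 genes and STK11.

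The series compared 6 libraries of A549 cells given a scrambled siRNA, called control, with 6 given an siRNA that targets SLC7A5, which forms part of a carrier of large neutral amino acids. All cells were of the same line and all were transfected, and 1 batch label covers all 12 samples. Dose, time after transfection and the number of siRNA sequences are not stated, and no label ties replicates to separate cultures. The p-values given here therefore cover just the variation among these libraries, part of which may be technical. Libraries held 1896100 to 2109699 counts. Levels are given in CPM, the counts scaled to the library total. The control mean of SLC7A5 was 27.97 ± 3.34 CPM and that of the other group 31.47 ± 5.59 CPM (SD, n = 6 each). The targeted gene was thus not lower, so that group is called the labelled-knockdown libraries. Over all rows tested, edgeR's quasi-likelihood test with Benjamini-Hochberg adjustment called 0 of 35754 (0%), with 1638 (4.58%) at an unadjusted p under 0.05. DESeq2 and limma voom each called 1.

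CDKN2A encodes a pair of unrelated proteins from overlapping reading frames, p16INK4A and ARF. The first binds the cyclin D kinases CDK4 and CDK6 and so keeps the retinoblastoma protein active, and the second holds back the ubiquitin ligase MDM2. CDKN2B encodes p15INK4B, a close relative of p16INK4A with the same kinase targets. MTAP is the first enzyme of methionine salvage and breaks down methylthioadenosine, a by-product of polyamine synthesis. Its loss together with CDKN2A leaves methylthioadenosine to build up, which partly inhibits the methyltransferase PRMT5. DMRTA1 is a transcription factor with the DM DNA-binding domain. STK11, also named LKB1, is the kinase that activates AMPK and its relatives when held by STRAD and MO25 proteins. A homozygously deleted gene leaves no template for RNA, whereas a gene with a truncating mutation can still be transcribed.

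In RefSeq (GRCh38.p14) the 9p21 genes lie next to each other on chromosome 9. MTAP spans 21802636 to 21941115 on the forward strand, CDKN2A 21967752 to 21995324 and CDKN2B 22002903 to 22009313, both on the reverse strand, and DMRTA1 22446824 to 22455740 on the forward strand. STK11 spans 1205778 to 1228431 on the forward strand of chromosome 19. The values are gene totals, and which exons or introns the reads came from is not given in the table.

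How far reads of one gene can be told from those of another is set by shared sequence. The start of the MTAP coding sequence is shown beside MTAPP2, a processed MTAP pseudogene outside 9p21, because it is where this gene and a copy outside the locus could exchange counts. Sequences are from GENCODE release 29 (GRCh38) transcripts. The MTAP stretch is read from exons 1, 2 and 3 between 21802765 and 21816729 on the forward strand of chromosome 9, and that of MTAPP2 from chr3:189969726-189969845 on the reverse strand. Of 120 bases 4 differ, shown in capitals, and the longest identical run is 96 bases.
MTAP: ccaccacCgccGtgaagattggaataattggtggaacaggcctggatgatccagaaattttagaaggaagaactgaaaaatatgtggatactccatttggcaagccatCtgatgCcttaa
MTAPP2: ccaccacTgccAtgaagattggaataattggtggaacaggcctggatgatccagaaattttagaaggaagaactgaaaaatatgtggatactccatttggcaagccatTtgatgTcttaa

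Sharing was also counted over whole transcripts. Of 4550 distinct 50-base words in the 14 annotated CDKN2A transcripts, 31 also occur in CDKN2B and 295 in CDKN2B-AS1, on either strand, and 0 occur in an annotated transcript of a gene more than 1 Mb away. The same number is 0 of 4051 words for CDKN2B and 0 of 5520 for DMRTA1. It is 7 of 8924 (0.0784%) for STK11 and 209 of 14855 (1.41%) for MTAP, spread over 136 genes. With nearer genes included, MTAP shared 1373 words (9.24%), most of them with ERVFRD-3 (635), AL359922.1 (414) and AL359922.2 (162). STK11 shared 107 (1.20%), of which 100 were with CBARP. MTAPP2 held 186 counts over the 12 libraries against 1840 for MTAP. Its row is named by an STRG number rather than by a gene as that of MTAP is, and the stretch it covers is not given. Exact matches to annotated transcripts elsewhere therefore cover none of the words of CDKN2A, CDKN2B and DMRTA1. Genome sequence outside annotated transcripts was not searched, and the sources used here do not give the read length.

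CDKN2A had 441 counts over the 12 libraries, or 18.6 CPM with an exact Poisson 95% interval of 16.9 to 20.4 CPM, which covers counting error only. Control libraries ran from 14.5 CPM through a median of 20.3 to 24.0 CPM, and the labelled-knockdown libraries from 14.1 through 18.6 to 21.8 CPM. The groups overlapped, and in bulk libraries fewer cells with a transcript and less of it per cell cannot be told apart. The lowest library, replicate 6 of the labelled knockdown, still held 27 counts. The log2 fold change was -0.08 with a standard error of 0.15, a 95% interval of the fold from 0.769 to 1.17 and an adjusted p of 0.998 in edgeR.

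CDKN2B had 664 counts, or 28.0 CPM (25.9 to 30.3 CPM by the same interval). Its control libraries ran from 22.6 CPM through 27.7 to 35.5 CPM, and those labelled knockdown from 23.2 through 27.9 to 32.2 CPM. Control replicate 4 was the highest and control replicate 5 the lowest of all 12, so the control group enclosed the other. The log2 fold change was 0.01 with a standard error of 0.12, and the 95% interval of the fold ran from 0.843 to 1.20 (adjusted p = 0.998, edgeR).

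CDKN2B-AS1, also called ANRIL, is a long non-coding RNA that runs antisense through the whole of CDKN2B and starts beside CDKN2A, with 534 bases of overlap with CDKN2A and 6411 with CDKN2B. It takes part in Polycomb silencing of the INK4 genes. Its control libraries ran from 30.8 CPM through 35.8 to 39.1 CPM, and those labelled knockdown from 39.8 through 44.0 to 52.2 CPM. All 6 labelled-knockdown libraries lay above all 6 controls, as did 28 of 35754 rows (0.0783%), while 38 rows (0.106%) lay below. The log2 fold change was 0.33 with a standard error of 0.10 and a 95% interval of the fold from 1.10 to 1.44. The unadjusted p was 0.0019 and the adjusted p 0.998 in edgeR, so it did not pass over all rows. Over the alternatives the adjusted p ranged from 0.976 to 1.0. Of the 50-base words of CDKN2B transcripts, 0 occur in annotated CDKN2B-AS1 transcripts on either strand, whereas 295 of those of CDKN2A do. The strand setting of the counting is not given, so reads from the stretch that CDKN2A and CDKN2B-AS1 share cannot be told apart.

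The other rows that overlap CDKN2A were non-coding. LOC124902130 (chromosome 9, 21980500 to 21994028) lies wholly within the CDKN2A span and had 1932 counts, more than CDKN2A itself, with control libraries at 82.7 ± 4.57 CPM and the others at 80.4 ± 5.55 CPM (SD, n = 6 each). CDKN2A-AS1, which overlaps the end of CDKN2A by 3 bases, had 108 counts and was below the count filter of the test. Within MTAP, the pseudogene TUBB8P1, in a row named by an STRG number, had 137 counts. CBARP, which overlaps the end of STK11 by 145 bases, had 688 counts.

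MTAP had the most counts of the set, 1840 over the 12 libraries, or 77.7 CPM (74.2 to 81.3 CPM). Control libraries ran from 69.8 CPM through 77.7 to 89.8 CPM, and those labelled knockdown from 67.3 through 81.02 to 84.4 CPM. Replicates 1 and 4 of the labelled knockdown were below all controls and control replicate 4 was above all others. Both groups summed to 920 counts. The log2 fold change was -0.002 with a standard error of 0.08, and the 95% interval of the fold, 0.897 to 1.11, was the narrowest of the set (adjusted p = 0.998, edgeR).

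DMRTA1 had 858 counts, or 36.2 CPM (33.8 to 38.7 CPM). Control libraries ran from 35.5 CPM through 39.5 to 43.0 CPM, and those labelled knockdown from 30.2 through 33.4 to 36.8 CPM. In 4 of 6 controls the level was above every labelled-knockdown library, and in 4 of 6 labelled-knockdown libraries it was below every control. The log2 fold change was -0.22 with a standard error of 0.09 and a 95% interval of the fold from 0.754 to 0.981. The unadjusted p was 0.0272, where 4.58% of all rows had one under 0.05. It was 0.062 in DESeq2, and 0.0696, 0.0664 and 0.0522 in edgeR without control replicate 3, labelled-knockdown replicate 1 or labelled-knockdown replicate 5. The adjusted p was 0.998 in edgeR.

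STK11 had 539 counts, or 22.8 CPM (20.9 to 24.8 CPM). Control libraries ran from 17.5 CPM through 21.4 to 28.2 CPM, and those labelled knockdown from 19.4 through 23.5 to 27.6 CPM. The controls again enclosed the other group. The log2 fold change was 0.13 with a standard error of 0.13, and the 95% interval of the fold ran from 0.908 to 1.32 (adjusted p = 0.998, edgeR).

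**Figure D1:**
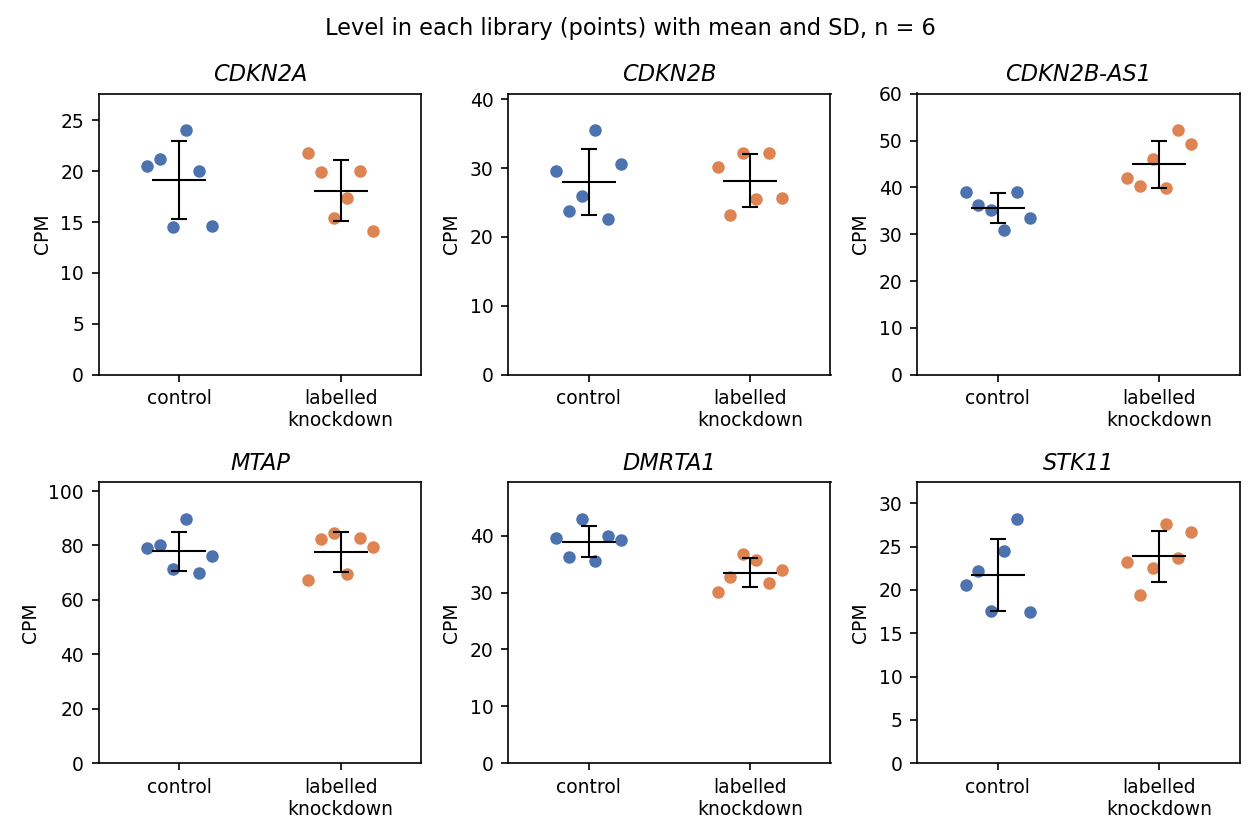
Each point is 1 library, in CPM on axes that start at 0, with the mean and SD of 6 libraries per group, for the 9p21 genes, STK11 and the antisense RNA CDKN2B-AS1. No library is at or near 0 for any of the genes, and only CDKN2B-AS1 shows groups that do not overlap.

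Spread between libraries was close to counting noise. The chi-square statistic of a gene's 12 counts per degree of freedom, for which counting noise alone gives about 1, was 1.16 for CDKN2A, 1.22 for CDKN2B and MTAP, 0.780 for DMRTA1 and 1.13 for STK11. Its median was 1.17 over 15217 protein-coding genes that averaged 20 counts or more. The counts of the 9p21 genes were thus as steady from library to library as those of protein-coding genes in general.

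To set levels of different genes side by side, the mean count over the 12 libraries was divided by the length of all annotated exons. On that scale CDKN2A stood at 8.49 counts per kb, MTAP at 10.5, DMRTA1 at 12.8 and CDKN2B at 13.6, against a median of 11.4 over 18618 protein-coding genes. Their percentiles among those genes were 26.7, 41.3, 66.9 and 75.4. STK11 stood at 5.199 counts per kb, the percentile 9.24. All of them lay within the central 90% of protein-coding genes, which ran from 3.82 to 26.7 counts per kb. Of the protein-coding genes, 96.1% had a count in every library, and Spearman's rho between mean count and exonic length was 0.784, a description across genes that are not independent.

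The length used moves the values of CDKN2A, MTAP and STK11. Per kb of the longest annotated transcript, CDKN2A stood at 28.6, MTAP at 20.3, CDKN2B at 14.1, DMRTA1 at 12.8 and STK11 at 12.6 counts per kb, against a median of 13.6 over all protein-coding genes. The percentiles were then 92.0, 83.9, 58.7, 35.8 and 32.4 in that order. CDKN2A has 4329 bases of annotated exon but 1283 in its longest transcript, and STK11 8639 against 3554, where 1 GENCODE transcript starts upstream of the RefSeq gene. The order of levels within the set thus depends on the length used. On both lengths, none of the 9p21 genes was near 0.

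Neighbours were the nearest protein-coding genes that do not overlap the genes and keep the same symbol in GENCODE and RefSeq. Genes renamed between those sources are passed over. The 16 neighbours, 8 on each side, gave the local background. They ran from 5.45 counts per kb for IFNA6 to 19.5 for IFT74, with a median of 13.4, and the 9p21 genes fell inside that range. On the left lie interferon genes, a family of related copies for which shared words were not counted here, and KLHL9, a ubiquitin ligase adaptor, at 13.6 counts per kb. On the right, ELAVL2, a neuronal RNA-binding protein, stood at 15.95 and TEK, an endothelial receptor, at 12.8 counts per kb.

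Summed over exons and divided by the density of all protein-coding exons in the same library, the 9p21 genes had a relative density of 0.916 ± 0.0656 in control and 0.880 ± 0.0487 with the labelled knockdown (SD, n = 6 each). The left neighbours had 0.988 ± 0.0918 and 0.949 ± 0.0892, and the right neighbours 1.19 ± 0.0757 and 1.17 ± 0.0699 (SD, n = 6 each). The single values of the 9p21 genes ran from 0.828 to 1.03 and overlapped those of the left neighbours, 0.838 to 1.11, but not those of the right neighbours, 1.09 to 1.30. Per kb of the longest transcript the order changed, at 1.04 ± 0.0677 for the 9p21 genes, 0.721 ± 0.0660 for the left and 1.02 ± 0.0600 for the right neighbours (SD over 12 libraries). Neither length showed a drop to zero at the genes named as deleted.

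**Figure D2:**
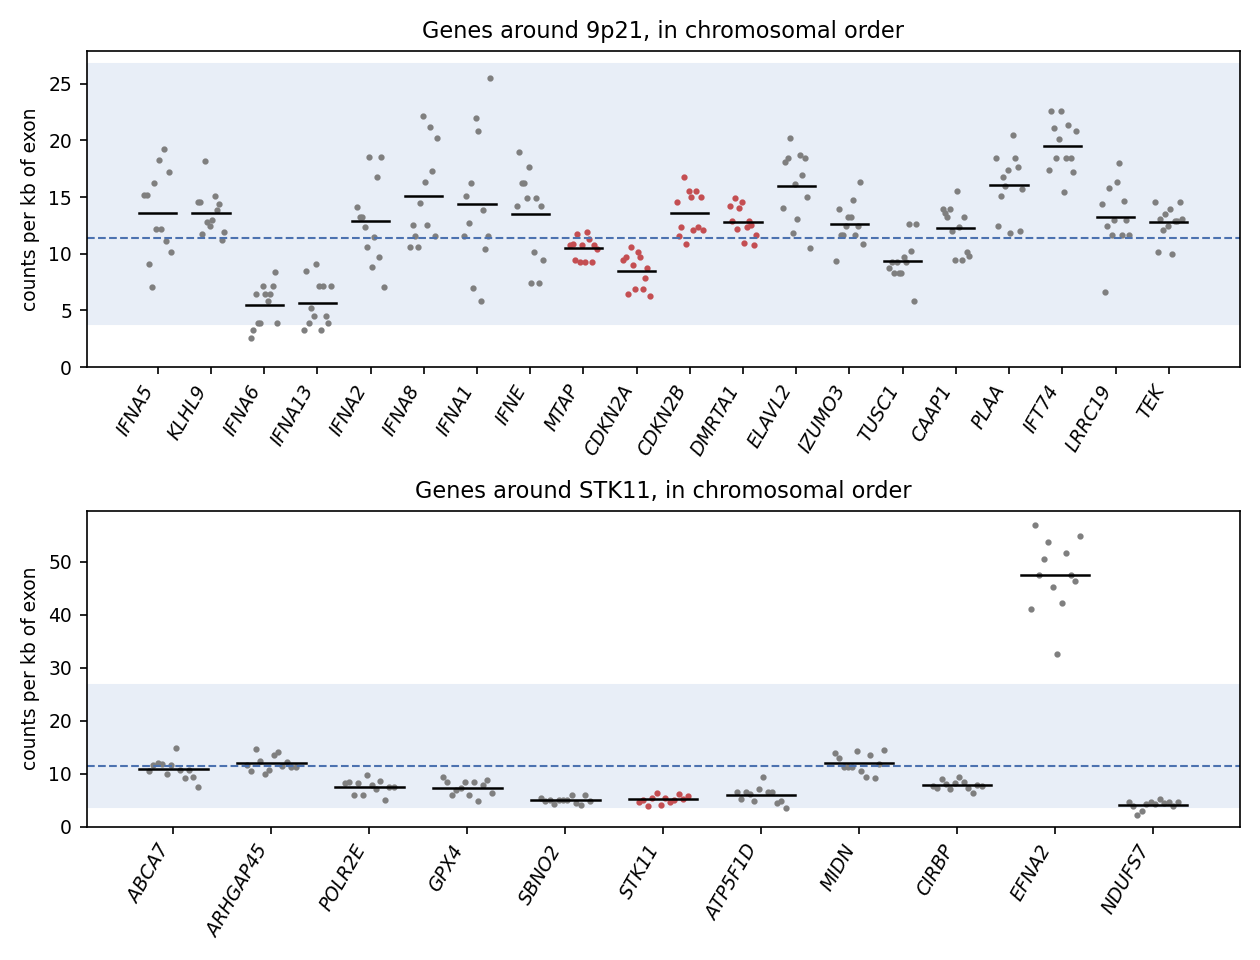
Points are the counts per kb of exon in each of 12 libraries and black bars their means, for protein-coding genes in chromosomal order around 9p21 (top) and STK11 (bottom), with the 9p21 genes and STK11 in red. The dashed line is the median of all protein-coding genes, 11.4, and the shaded band their central 90%, and the red points stay inside that band.

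Per kb of exon, STK11 lay below 8 of its 10 protein-coding neighbours, which were taken by the same rule. They ran from 4.17 counts per kb for NDUFS7, a subunit of respiratory complex I, to 47.5 for EFNA2, an ephrin ligand, with a median of 7.74. SBNO2, the nearest on the left, stood at 5.04 counts per kb, with another row of the same symbol set aside, and ATP5F1D, a subunit of ATP synthase and the nearest on the right that does not overlap STK11, at 6.04. The relative density of STK11 was 0.403 ± 0.0770 in control and 0.441 ± 0.0545 in the labelled-knockdown libraries (SD, n = 6 each), against 0.733 ± 0.0248 and 0.717 ± 0.0341 for its neighbours together. The single values of STK11, 0.323 to 0.522, did not overlap those of its neighbours together, 0.668 to 0.772. Per kb of the longest transcript STK11 stood at 0.764 ± 0.121 and the neighbours at 0.798 ± 0.0326 (SD over 12 libraries).

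Genes that A549 cells are known to express gave a second reference. The 24 genes of that list, which holds keratins, glycolytic enzymes and NRF2 targets, ran from 2.40 counts per kb for S100A6 to 21.8 for AKR1B10, an aldo-keto reductase, with a median of 7.45. CDKN2A lay above 15 of the 24, MTAP above 20, CDKN2B and DMRTA1 above 22 each, and STK11 above 5. The 20 genes of other tissues ran from 4.79 counts per kb for TNNI3, cardiac troponin I, to 23.8 for MBP, a myelin protein, with a median of 11.9. Of those 20, CDKN2A lay above 6, MTAP above 9, DMRTA1 above 13, CDKN2B above 16 and STK11 above 1. Per kb of the longest transcript the ranks moved. CDKN2A then lay above 23 of the 24 expressed genes, MTAP above 21, CDKN2B above 18, and DMRTA1 and STK11 above 15 each. Of the 20 genes of other tissues, CDKN2A and MTAP then lay above 19 each, CDKN2B above 13, DMRTA1 above 7 and STK11 above 5. The medians on that length were 11.7 for the expressed genes and 13.3 for the genes of other tissues. On either length, the counts per kb of the genes named as deleted in A549 lay within the range of the genes the line expresses and of genes typical of other tissues. The expressed list had the lower median on either length, and per kb of exon GAPDH stood at 7.18 and ACTB at 6.42. A place in its range therefore does not mark a gene as expressed.

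**Figure D3:**
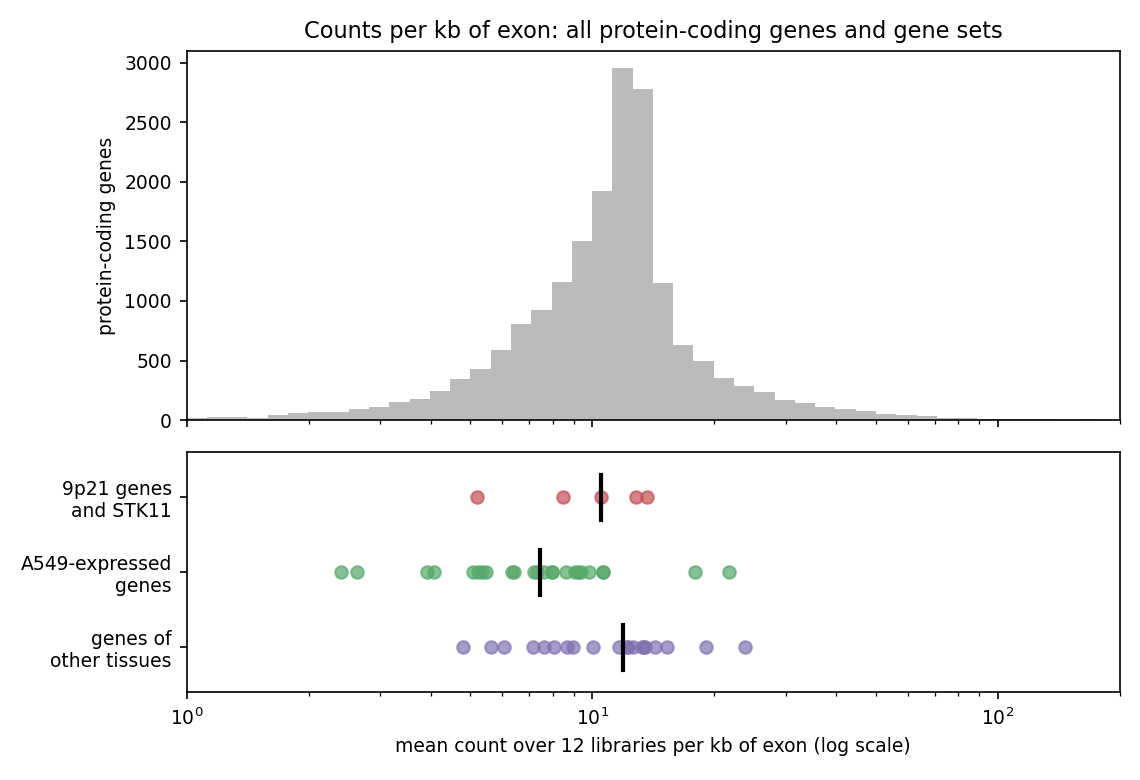
The upper panel is the histogram of counts per kb of exon over protein-coding genes on a log axis, and the lower panel shows single genes of each set as points with black bars at the set medians. The 9p21 genes and STK11 lie between 5.199 and 13.6 counts per kb, inside the range of the A549-expressed genes and that of the genes of other tissues.

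Markers of other cell types had densities in the same range. The 7 leukocyte markers ran from 6.27 (CD3E) to 12.6 counts per kb (LYZ), the 5 endothelial markers from 8.59 (ROBO4) to 11.5 (KDR) and the 7 fibroblast markers from 5.40 (COL3A1) to 14.2 (PDGFRB), and none of them was at 0 in any library. Their summed densities per library were 7.78 to 10.6, 9.31 to 11.6 and 7.44 to 8.63 counts per kb in control, and 9.16 to 10.02, 9.49 to 11.8 and 7.62 to 9.11 in the labelled-knockdown libraries. For the A549-expressed list they were 7.03 to 7.91 and 6.67 to 7.92. The part of other cells, or of sequence other than mRNA, in the counts of the 9p21 genes was not tested.

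Between the groups, 0 of the 5 genes passed in edgeR, against 0% of all rows. The median log2 fold change over all rows was -0.001 and the median absolute one 0.10. Among the nearest neighbours at 9p21, IFNE, an interferon of mucosal epithelium, ran from 10.5 CPM through 12.5 to 14.1 CPM in control and from 5.44 through 7.22 to 11.3 CPM in the labelled-knockdown libraries. The groups overlapped, and its log2 fold change of -0.62 (standard error 0.19) had an unadjusted p of 0.0024 and an adjusted p of 0.998 in edgeR. ELAVL2, on the other side, stood at 43.0 ± 8.65 and 40.1 ± 7.84 CPM (SD, n = 6 each). Of the 14 neighbours tested, IFNE was the 1 with an unadjusted p under 0.05.

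**Figure D4:**
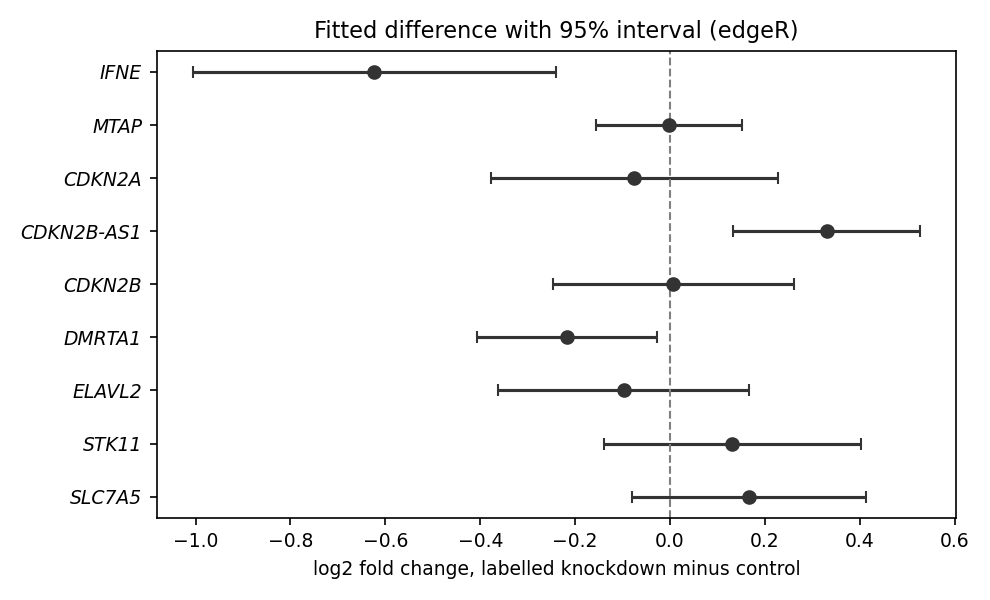
Points are edgeR log2 fold changes, labelled-knockdown libraries minus control, with 95% intervals that are not adjusted for the number of rows tested, for the 9p21 genes, STK11, the nearest 9p21 neighbours, CDKN2B-AS1 and SLC7A5. The intervals of CDKN2B-AS1, DMRTA1 and IFNE leave out 0, yet all adjusted p were 0.998.

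Genes that act with or on the INK4 and ARF proteins gave 0 calls in edgeR. Of 18 genes of the CDK4/6 and RB axis, 14 were positive and 4 negative in log2 fold change (median 0.05). The library SD, that of a list's median log2 deviation among the 6 control libraries, was 0.05 for it. It is the spread of single libraries, wider than that of a difference between means of 6, so it is no yardstick for the median fold change. In this and the next paragraphs the control mean comes first. TFDP1, a partner of E2F factors, stood at 24.0 ± 4.64 and 20.2 ± 3.02 CPM, and RBL1, a relative of RB, at 38.1 ± 3.80 and 42.4 ± 4.35 CPM (SD, n = 6 each). The highest and lowest densities of that list were 37.6 counts per kb for E2F3 and 4.27 for E2F5. The 18 E2F target genes split 9 and 9 with a median of 0.005, and RRM2, a ribonucleotide reductase subunit, had 27.7 ± 3.80 and 33.5 ± 4.53 CPM (SD, n = 6 each), with an unadjusted p of 0.0255. POLA1, a replicative polymerase, was the densest of them at 58.3 counts per kb and MCM5, a helicase subunit, the least dense at 7.89. The level of POLA1 was 190.8 ± 5.36 CPM against 183.7 ± 9.07 CPM (SD, n = 6 each).

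The 6 other CDK inhibitors were all negative in log2 fold change (median -0.14, library SD 0.15). None had an unadjusted p under 0.05. CDKN1A, the p21 inhibitor, stood at 19.5 ± 2.87 and 17.2 ± 4.36 CPM and CDKN2C, which encodes the INK4 protein p18, at 18.8 ± 3.20 and 17.2 ± 3.03 CPM (SD, n = 6 each). CDKN2D, the remaining INK4 gene, was the densest at 13.4 counts per kb, and CDKN1C the least dense at 5.15. Per kb of exon CDKN2A and CDKN2B, at 8.49 and 13.6, lay in and just above the range of these other CDK inhibitors. Of the INK4 genes outside 9p21, CDKN2C stood at 10.7 and CDKN2D at 13.4, both above CDKN2A. Per kb of the longest transcript CDKN2A stood at 28.6, and the range of the list on that length is not given here.

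Of 12 genes of the ARF and MDM2 arm, 6 were positive and 6 negative, with a median of 0.02. BBC3, a death-promoting protein, stood at 14.5 ± 4.28 and 16.4 ± 3.17 CPM (SD, n = 6 each), and TIGAR was the densest at 26.3 counts per kb. Of 13 tested regulators of the INK4 locus, 7 were positive and 6 negative, with a median of 0.01. CBX7, a Polycomb protein that represses the locus, stood at 22.9 ± 5.16 and 28.9 ± 3.61 CPM (unadjusted p = 0.0224), and PHC2, of the same complex, at 34.6 ± 5.48 and 29.4 ± 2.27 CPM (unadjusted p = 0.0432; edgeR, SD, n = 6 each). EZH2, the Polycomb methyltransferase, was the densest at 37.5 counts per kb and RING1 the least dense at 2.70.

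Around MTAP, 7 further genes of methionine salvage split 4 positive and 3 negative (median log2 fold change 0.05). MRI1, which acts right after MTAP, stood at 36.9 ± 3.99 and 40.8 ± 3.39 CPM, and GOT1, a transaminase, at 16.4 ± 2.69 and 13.4 ± 1.65 CPM (SD, n = 6 each). MRI1 was the densest at 22.2 counts per kb of exon and APIP the least dense at 3.95, so MTAP lay within the pathway's range on that length. The 14 genes of S-adenosylmethionine and polyamine metabolism split 6 and 8 with a median of -0.05. MAT2A, which makes S-adenosylmethionine, stood at 19.5 ± 3.89 and 16.05 ± 3.39 CPM and OAZ1, a brake on polyamine synthesis, at 10.3 ± 2.25 and 8.05 ± 1.80 CPM (SD, n = 6 each). AHCY was the densest at 42.1 counts per kb and OAZ2 the least dense at 3.26. The 5 genes of the PRMT5 complex split 2 and 3 with a median of -0.11. PRMT5 stood at 12.7 ± 3.15 and 15.4 ± 2.26 CPM, with 7.98 counts per kb the lowest of the complex, and CLNS1A, an adaptor, at 21.8 ± 3.89 and 19.99 ± 4.11 CPM (SD, n = 6 each). WDR77, the binding partner of PRMT5, was the densest at 11.9.

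Around STK11, all 4 genes that encode its STRAD and MO25 partners were negative in log2 fold change (median -0.09, library SD 0.10). None had an unadjusted p under 0.05. STRADA stood at 21.34 ± 2.11 and 19.1 ± 2.49 CPM and CAB39, which encodes an MO25 protein, at 37.2 ± 4.59 and 33.9 ± 4.31 CPM (SD, n = 6 each). They were also the least and the most dense, at 3.68 and 13.1 counts per kb. The 14 kinases activated by STK11 split 7 and 7 with a median of -0.01. NUAK1 stood at 43.2 ± 6.37 and 35.6 ± 5.79 CPM (unadjusted p = 0.0217, edgeR) and PRKAA2, a catalytic subunit of AMPK, at 67.4 ± 5.98 and 60.3 ± 5.25 CPM (SD, n = 6 each). MARK1 was the densest at 28.97 counts per kb and MARK3 the least dense at 5.25.

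Of 13 AMPK subunits and substrates, 5 were positive and 8 negative with a median of -0.03. ACACB, which makes malonyl-CoA, stood at 91.5 ± 6.11 and 84.5 ± 7.10 CPM (SD, n = 6 each). FOXO3 was the densest at 17.6 counts per kb and TSC2 the least dense at 4.34. The CRTC and CREB branch is more active where STK11 is lost, but both groups are of the same line, so STK11 status is not compared here. Of 16 genes of that branch, 12 were positive and 4 negative with a median of 0.06. The library SD of that list was 0.04. PDE4D, a phosphodiesterase with very long introns, was the densest at 78.4 counts per kb and stood at 634.8 ± 11.8 and 660.4 ± 12.7 CPM (unadjusted p = 0.0378, edgeR, SD, n = 6 each). LINC00473, a CREB-induced RNA, stood at 13.04 ± 3.34 and 15.8 ± 1.17 CPM (SD, n = 6 each), and CRTC3 was the least dense of those with a length at 5.96 counts per kb.

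The 6 relatives of DMRTA1 split 1 positive and 5 negative (median log2 fold change -0.11, library SD 0.08). DMRTA2, the closest relative, stood at 31.3 ± 2.65 and 26.9 ± 8.70 CPM and DMRT3 at 15.5 ± 2.36 and 17.8 ± 2.05 CPM (SD, n = 6 each). DMRTA2 was the densest at 17.8 counts per kb and DMRTC2 the least dense at 7.99, with DMRTA1 between them at 12.8. Of 10 tumour suppressors outside both loci, 6 were positive and 4 negative with a median of 0.01. ATM, a DNA damage kinase, stood at 92.3 ± 8.58 and 101.3 ± 8.20 CPM and BRCA2 at 74.0 ± 4.03 and 79.9 ± 6.24 CPM (SD, n = 6 each). VHL was the densest at 14.6 counts per kb of exon and NF1 the least dense at 3.23, a range that holds the 9p21 genes and STK11 on that length. Per kb of the longest transcript CDKN2A stood at 28.6 and MTAP at 20.3, and the range of the list is not given on it.

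The remaining lists also gave 0 calls in edgeR. Their library SD was 0.09 for A549-expressed genes, 0.06 for genes of other tissues, 0.13 for leukocyte, 0.08 for endothelial and 0.06 for fibroblast markers. In edgeR the unadjusted p was 0.0078 for MS4A1, 0.0324 for UMOD, 0.0366 for PDGFRB and 0.047 for TUBA1B. Median log2 fold changes were 0.01 for the 23 tested A549-expressed genes, with TUBA1B at -0.36 and PKM at 0.21, and -0.02 for the 17 tested genes of other tissues, with UMOD at -0.29 and CSN2 at -0.54. They were 0.06 for leukocyte markers, with MS4A1 at 0.42 and PTPRC at -0.15, 0.02 for endothelial markers, with ROBO4 at -0.21 and CDH5 at 0.11, and 0.10 for fibroblast markers, with PDGFRB at 0.20 and LUM at 0.31. Over all lists, 215 distinct genes were tested, 0 passed in edgeR and 10 (4.65%) had an unadjusted p under 0.05, beside 4.58% of all rows.

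Across the 12 libraries the 9p21 genes did not follow each other closely. Pearson's r of log2(CPM + 1) was 0.13 between CDKN2A and CDKN2B, 0.18 between CDKN2A and MTAP and 0.44 between CDKN2B and MTAP. DMRTA1 had r of -0.39, -0.19 and -0.14 with CDKN2A, CDKN2B and MTAP. The likest of 26022 rows with a mean of at least 20 counts were EPX for CDKN2A (r = 0.89), LOC100129291 for CDKN2B (0.90), ST13 for MTAP (0.92), LOC107984421 for DMRTA1 (0.86) and LOC107986931 for STK11 (0.93). These are descriptions over 12 libraries that share the scaling to the library total. Picking the highest r of 26022 over 12 libraries favours high values, so the likest rows are no evidence of shared regulation.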

How the data were processed

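Oligo-dT mRNA libraries of 12 A549 samples were sequenced from both ends, per the series' design text. The authors deposited raw whole-number counts per feature. GRCh38 was the build and RSEM 1.3.1, Bowtie2 and DESeq2 1.4.5 were tools of the study, per the submitters' processing notes, which assign no roles. RSEM estimates need not be whole, and the sources used here do not give the rounding or the strand setting, so reads from sequence shared with an antisense gene cannot be told apart.

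Columns were matched to samples by name. CPM used library totals. The test was edgeR 4.0.16 (TMM, filterByExpr, robust glmQLFit, group as the single term) in R 4.3.3, on all rows, with Benjamini-Hochberg adjustment at 0.05. It was also run on simulated counts with planted changes. The outcome is not given here, so that run does not show how small a change could be found. Alternatives used DESeq2 1.42.0, limma voom 3.58.1, RLE, library totals, no filter, a replicate block, rows summed by symbol and each library left out. Lengths came from GENCODE release 29, joined by symbol and chromosome. Python 3.11.15 with pandas 2.3.3 and scipy 1.17.1 handled tables and intervals.

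The genes and 19 lists were chosen with earlier results of these data known. Text names the 5 genes, SLC7A5, overlapping non-coding rows, nearest neighbours, per list the 2 smallest unadjusted p and the highest and lowest counts per kb, and the likest row of each gene. KLHL9, IFNA6, IFT74, TEK, EFNA2, NDUFS7, CBARP and MTAPP2 were added after their values were seen. Some results that this rule takes are not reported here.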

Additional observations from a re-analysis of the deposited data

Results flagged for a closer look

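In 206 groups of 6 libraries, the CPM of each named gene or neighbour was searched for a single library far from the other 5. Such a library turned up in 8 groups, fewer than the 10.3 that chance gives at about 1 in 20. None of the 8 concerned CDKN2A, CDKN2B, MTAP, DMRTA1 or STK11.

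CDKN1A had 25.2 CPM in control replicate 2 (others 17.6 to 19.3 CPM) and 25.6 CPM in labelled knockdown replicate 2 (others 13.4 to 17.9 CPM). KLHL9, the neighbour of the interferon genes at 9p21, had 54.3 CPM in control replicate 4 (others 34.5 to 41.9 CPM), and TEK had 22.8 CPM in labelled knockdown replicate 2 (others 31.6 to 36.9 CPM). APIP had 13.5 CPM in control replicate 3 (others 9.24 to 10.5 CPM). In the libraries labelled knockdown, OAZ1 had 11.5 CPM in replicate 6 (others 6.64 to 8.18 CPM), BRCA2 68.0 CPM in replicate 3 (others 80.2 to 86.3 CPM) and KDR 45.0 CPM in replicate 2 (others 36.1 to 38.7 CPM).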

How the results depend on the processing

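Of 220 recomputed values, 202 kept their direction and side of the threshold, or stayed within the spread. Counts of calls were 1 in DESeq2 and in limma voom, 0 to 2 with single libraries left out, the 2 without control replicate 4, and 0 otherwise, the replicate block included. The cause was not tested. The log2 fold changes near 0 changed sign when single libraries were left out, from -0.14 to 0.000321 for CDKN2A, -0.0447 to 0.0866 for CDKN2B and -0.0292 to 0.0439 for MTAP. DMRTA1 stayed between -0.24 and -0.19, STK11 between 0.08 and 0.22 and SLC7A5 between 0.07 and 0.21. With the longest transcript as length, CDKN2A moved to 28.6, MTAP to 20.3 and STK11 to 12.6 counts per kb, the divisor being smaller. Same-numbered libraries of both groups showed no sign of pairing, with correlations of their deviations from -0.011 to 0.023 and 1 of 6 numbers matching best with itself. Spread close to counting noise leaves little for pairing to show in, so the check cannot settle whether they were paired. At 27 to 174 counts per library, 95% intervals of the fold were 0.769 to 1.17 for CDKN2A and 0.897 to 1.11 for MTAP.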
